A study of Rattus norvegicus with 6 samples.

Results

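The genes described here are 10 receptors that signal through the inhibitory G proteins Gi and Go in sensory neurons: the opioid receptor genes Oprm1, Oprd1, Oprk1 and Oprl1, the cannabinoid receptor gene Cnr1, the galanin, neuropeptide Y and somatostatin receptor genes Galr1, Npy1r, Npy2r and Sstr2, and the adenosine receptor gene Adora1. They were taken by gene name from a table of 25689 genes, and all 10 were present. Of these, 9 were among the 14919 genes with enough reads to be tested, and Oprd1 was not. The RNA came from sensory neurons of dorsal root ganglia (DRGs) L1 and L2 in wild-type spontaneously hypertensive rats (SHRs), with 3 samples taken 4 weeks after surgical removal of the perirenal fat on both sides (PRATA) and 3 after a sham operation. Both groups were hypertensive animals, and no normotensive group was sequenced. The animals are labelled as 6 to 8 weeks old, whereas an older age at purchase stands in the study's methods. The ganglia were digested with enzymes, and the neurons were parted from glia by their weaker adhesion during a short culture, so the RNA came from cultured cells rather than from intact ganglia. The sources do not say whether a sample was 1 rat or a pool, and the p-values therefore measure only the spread between these samples.

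Receptors of this class are activated by opioid peptides, endocannabinoids, galanin, neuropeptide Y, somatostatin or adenosine. The G protein they release has a pair of actions on the cell: its alpha subunit lowers the production of cyclic AMP by adenylyl cyclase, and its beta-gamma subunits close voltage-gated calcium channels and open inwardly rectifying potassium channels. In sensory neurons this reduces firing and transmitter release at the spinal terminals, and several of these receptors are targets of pain-relieving drugs.

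The samples held between 5892967 counts (sham replicate 2) and 15226952 counts (sham replicate 1). Sham replicate 2 also had the widest set of genes with a count, 23168 against 18956 to 20672 in the other samples, and a pseudogene share of 0.751% against 0.389% to 0.483%. In PRATA replicate 3 and sham replicate 1 another copy of the 7SL RNA gene took most of its reads: Rn7sl1 held 92.0% and 94.1% of the 7SL reads there and 45.3% to 47.4% elsewhere, a difference that crosses the operation groups. Summed markers of sensory neurons ran from 15756 to 22964 CPM (counts scaled to the size of each library) after PRATA and from 10714 to 16697 CPM after sham, and 25 of 26 neuron markers had a fold change above 1. Summed satellite glia markers ran from 4120 to 7676 CPM after PRATA and from 5460 to 10623 CPM after sham, and 0 of 14 had a fold change above 1. In RNA from a mixed cell sample, fewer cells of a type and less RNA per cell cannot be told apart.

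The groups were compared in edgeR with its quasi-likelihood test, and p-values were adjusted by the Benjamini-Hochberg method across the whole table. By this test 0% of the 14919 genes reached an adjusted p under 0.05, so no receptor did, and no adjusted p of any gene in edgeR was below 0.156. All 9 receptor genes tested had a higher fitted level after PRATA, where 52% of all genes tested did. Their log2 fold changes ran from 0.18 for Npy2r to 1.01 for Cnr1 with a median of 0.59, while the median of all genes tested was 0.02, and 9.95% of all genes lay above the receptors' median. An unadjusted p under 0.05 was found for 2 of the 9, Cnr1 and Oprl1, beside 18.3% of all genes tested (8.19% higher and 10.1% lower after PRATA). Cnr1 alone was also more than 2-fold apart, beside 4.4% of all genes (1.17% on the higher side). The PRATA and sham samples did not overlap for Cnr1 and Oprl1, beside 22.8% of all genes tested (11.6% on the higher side). The receptors' 2 of 9 at an unadjusted p under 0.05 and 2 of 9 without overlap were near these shares of all genes. With counts scaled by library size alone, 835 genes were higher and 1676 lower at an unadjusted p under 0.05, against 1222 and 1512 with TMM scaling, and the 9 receptors remained higher after PRATA.

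**Figure D1:**
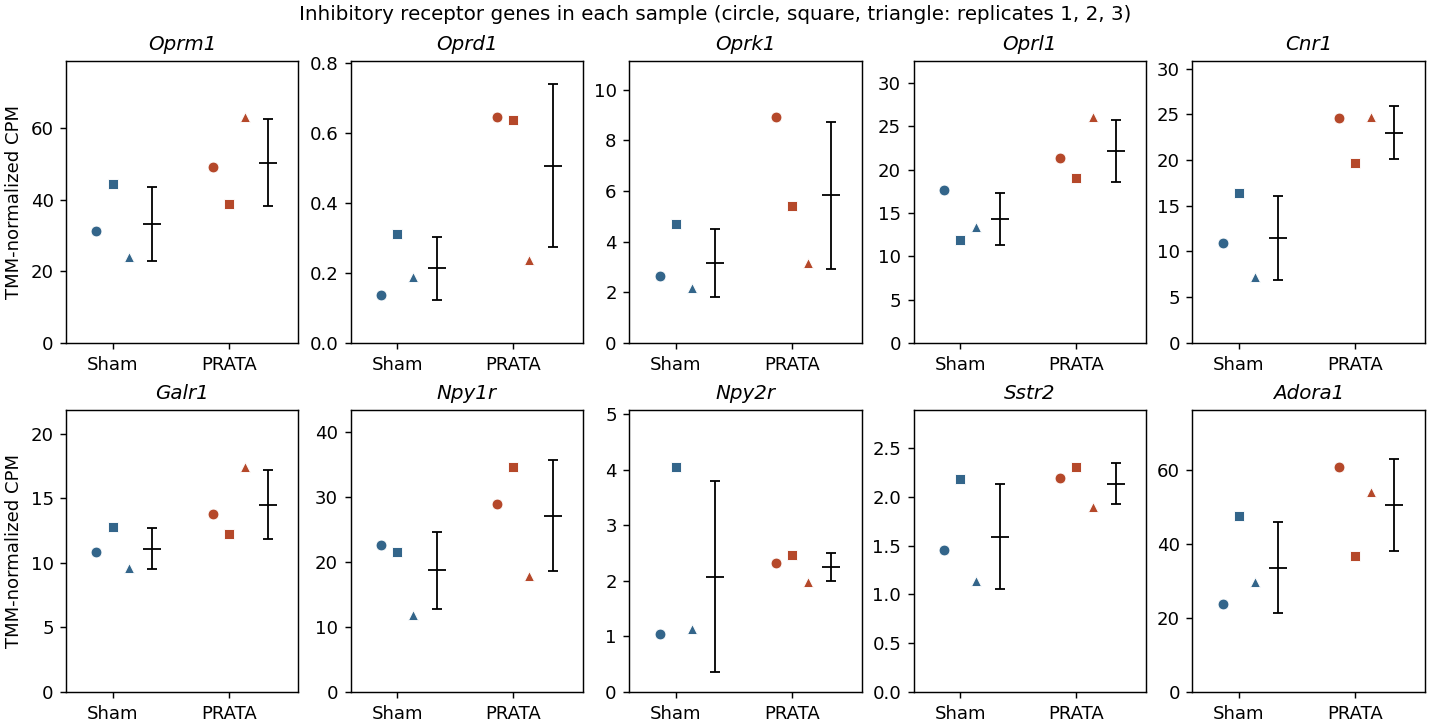
Normalized level (TMM-normalized CPM) of each of the 10 receptor genes in each sample, with sham samples in blue and PRATA samples in red, circles, squares and triangles for replicates 1, 2 and 3, and black marks for the group mean with its SD (n = 3). The groups do not overlap for Cnr1 and Oprl1, and the square of sham replicate 2 lies above at least 1 PRATA sample for each of the other 8 genes.

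Cnr1 encodes the CB1 receptor, which responds to anandamide and 2-arachidonoylglycerol. It measured 24.7, 19.7 and 24.7 CPM after PRATA (replicates 1, 2 and 3, the order used throughout) and 10.9, 16.4 and 7.18 CPM after sham. The groups did not overlap, with the narrowest gap between PRATA replicate 2 and sham replicate 2. The means were 23.0 ± 2.88 CPM after PRATA and 11.5 ± 4.63 CPM after sham (SD, n = 3), and edgeR's fitted fold change was 2.02, a log2 fold change of 1.01 ± 0.30 (SE). The adjusted p was 0.175 in edgeR, and 1.90% of all genes tested had a higher log2 fold change. The exact two-sided permutation test on the log2 values gave p = 0.10 (n = 3 per group), the smallest it can give here. Cnr1 kept an unadjusted p under 0.05 in all 14 alternative fits, with log2 fold changes from 0.77 to 1.38. These fits share samples and called 8.91% to 30.9% of all genes at that threshold. The same shares stand beside such counts for the receptors below. Once sham replicate 2 was left out, the log2 fold change of Cnr1 was 1.34 with an adjusted p of 0.0394 in edgeR. Sham replicate 2 was the sham sample nearest to PRATA for Cnr1, and without it 4.67% of all genes had an adjusted p under 0.05. Over the alternatives the adjusted p of Cnr1 ran from 0.0328 to 0.550. In RefSeq's rat annotation a long non-coding RNA and a pseudogene lie over the span of Cnr1, and the counting rule for such reads is not given in the sources used here.

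Oprm1 encodes the mu opioid receptor, the main target of morphine. It measured 49.2, 39.0 and 63.0 CPM after PRATA and 31.2, 44.3 and 24.0 CPM after sham. The groups overlapped, since sham replicate 2 stood above PRATA replicate 2. The means were 50.4 ± 12.1 and 33.2 ± 10.3 CPM (SD, n = 3), and the log2 fold change was 0.61 ± 0.27 (SE) with an adjusted p of 0.284 in edgeR. Oprm1 had an unadjusted p under 0.05 in 5 of the 14 alternative fits. In the annotation Ipcef1, a long non-coding RNA and a pseudogene overlap Oprm1. Ipcef1 was at 0 to 4.52 CPM, and no level is given here for the others, so a part of the Oprm1 reads is uncertain.

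Oprl1 encodes the nociceptin receptor, a relative of the classical opioid receptors that binds nociceptin and not the classical opioid peptides. Its values were 21.3, 19.0 and 26.0 CPM after PRATA and 17.6, 11.9 and 13.3 CPM after sham. The 3 PRATA samples were above the 3 sham samples, by a small margin between PRATA replicate 2 and sham replicate 1. The means were 22.1 ± 3.56 and 14.3 ± 2.99 CPM (SD, n = 3), with a log2 fold change of 0.63 ± 0.22 (SE) and an adjusted p of 0.218 in edgeR. Its unadjusted p was under 0.05 in 10 of the 14 alternative fits.

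Oprk1 encodes the kappa opioid receptor, which binds dynorphins, and was read at a few CPM. It measured 8.91, 5.42 and 3.16 CPM after PRATA against 2.63, 4.68 and 2.17 CPM after sham. The PRATA samples themselves spread over nearly the whole range, and PRATA replicate 3 lay below sham replicate 2. The log2 fold change of 0.90 ± 0.47 (SE) had an adjusted p of 0.340 in edgeR, and it was 0.45 without PRATA replicate 1.

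Oprd1 encodes the delta opioid receptor, which binds enkephalins, and had too few reads to be tested. It was counted 5, 8 and 3 times in the PRATA samples and 2 times in each sham sample, which is 0.237 to 0.645 CPM and 0.138 to 0.312 CPM. The sums of 16 and 6 reads gave a PRATA to sham ratio of 2.55 with a 95% counting interval of 0.947 to 7.95, which includes 1. This interval covers counting error only, and a difference was not detectable at this depth.

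The receptors for galanin, neuropeptide Y and somatostatin had log2 fold changes from 0.18 to 0.54. Galr1, a galanin receptor, measured 13.8, 12.3 and 17.5 CPM after PRATA and 10.8, 12.8 and 9.63 CPM after sham. The groups overlapped through PRATA replicate 2 and sham replicate 2, and the log2 fold change was 0.39 ± 0.23 (SE) with an adjusted p of 0.384 in edgeR, and the log2 fold change was 0.24 without PRATA replicate 3. Npy1r, the Y1 receptor for neuropeptide Y, measured 28.9, 34.7 and 17.8 CPM after PRATA and 22.6, 21.5 and 11.9 CPM after sham. Replicate 3 was the lowest sample of both groups, and the log2 fold change was 0.54 ± 0.32 (SE) with an adjusted p of 0.400 in edgeR. For Npy1r it was 0.30 without sham replicate 3 and 0.32 without PRATA replicate 2.

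Npy2r, the Y2 receptor found on nerve terminals, measured 2.32, 2.47 and 1.98 CPM after PRATA and 1.04, 4.06 and 1.13 CPM after sham. The sham group held both the highest and the lowest sample of Npy2r. Its log2 fold change of 0.18 ± 0.58 (SE) had an adjusted p of 0.895 in edgeR, and its sign turned in 3 of the 14 alternative fits. Sstr2, a somatostatin receptor, measured 2.19, 2.31 and 1.90 CPM after PRATA and 1.45, 2.19 and 1.13 CPM after sham. The PRATA samples lay close together, sham replicate 2 equalled PRATA replicate 1 to the digits shown, and the log2 fold change was 0.45 ± 0.42 (SE) with an adjusted p of 0.598 in edgeR, and the log2 fold change was 0.26 without sham replicate 3 and 0.71 without sham replicate 2. Slc39a11 overlaps Sstr2 in the annotation at 3.67 to 6.48 CPM, above the level of Sstr2 itself, so the Sstr2 values are uncertain where the counting did not use strand.

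Adora1 encodes the adenosine A1 receptor. It measured 60.9, 36.7 and 54.2 CPM after PRATA and 23.7, 47.4 and 29.8 CPM after sham. PRATA replicate 2 lay below sham replicate 2, so the groups overlapped in spite of means of 50.6 ± 12.5 and 33.6 ± 12.3 CPM (SD, n = 3). The log2 fold change was 0.59 ± 0.30 (SE) with an adjusted p of 0.325 in edgeR, and the log2 fold change was 0.37 without sham replicate 1 and 0.92 without sham replicate 2. Mybph, which overlaps Adora1 in the annotation, was at 1.12 to 2.07 CPM after PRATA and 0.472 to 0.691 CPM after sham.

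**Figure D2:**
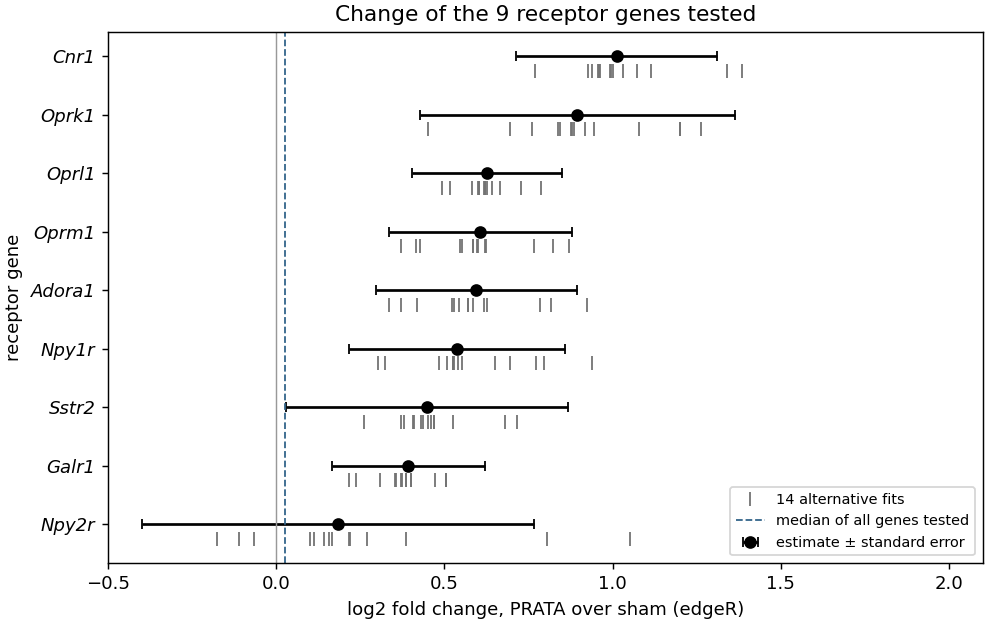
Log2 fold change of the 9 receptor genes tested, PRATA over sham, as edgeR estimates (black points, bars for the standard error) with the values of 14 alternative fits as grey ticks below each point and the median of all genes tested as a dashed line. Cnr1 has the highest estimate at 1.01, and Npy2r is the only gene with ticks on both sides of 0.

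Sham replicate 2 stood nearer to the PRATA samples than the other sham samples did for most receptors. The sum over the 10 genes was 213, 172 and 210 CPM after PRATA (198 ± 22.8, SD, n = 3) and 122, 166 and 100 CPM after sham (129 ± 33.2, SD, n = 3). In this sum sham replicate 2 came close to PRATA replicate 2, while the other sham samples stood well below. Of the 9 genes tested, sham replicate 3 was the lowest sample for 6, sham replicate 1 for 2 and sham replicate 2 for 1. The highest sample was PRATA replicate 3 for 4, PRATA replicates 1 and 2 for 2 each, and sham replicate 2 for Npy2r. Without sham replicate 2 the groups did not overlap for 8 of the 9, all but Npy1r, beside 46.7% of all genes, counted in both directions. Since sham replicate 2 lay nearest to the PRATA samples for most receptors, leaving it out favours separation. Without PRATA replicate 1, sham replicate 1 or sham replicate 3 the number was 2 of the 9, beside 27.5%, 33.4% and 26.9% of all genes. Without PRATA replicate 2 or PRATA replicate 3 it was 5 of the 9, beside 36.7% and 32.5%. With PRATA replicate 3 and sham replicate 1 left out, 5 of the 9 did not overlap, beside 44.8% of all genes. These 2 samples share the leading 7SL copy. Between them PRATA replicate 3 was higher for 8 of the 9 receptors, from 0.27 (Oprk1) to 1.19 (Adora1) on the log2 scale. It was lower for Npy1r at -0.34. The share of all genes higher in this pair was not computed. The mean log2 level of the neuron markers was also higher in PRATA replicate 3, at 8.18 against 7.28 in sham replicate 1. Relative to that mean, only Oprm1, Cnr1 and Adora1 of the 9 were higher in PRATA replicate 3.

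The neuron markers were also higher on average after PRATA, so the receptor values were expressed relative to them as well. The mean log2 level of the 26 neuron markers (log2 of CPM plus 0.5) was 8.31, 7.94 and 8.18 after PRATA and 7.28, 8.00 and 7.65 after sham, a difference of 0.50 with an exact two-sided permutation p of 0.20 (n = 3 per group). After this mean was subtracted sample by sample, the median difference between PRATA and sham over the 9 receptors was 0.11, against 0.61 before it was subtracted on the same scale. For Oprm1, Oprl1, Adora1 and Npy1r the difference went from 0.61, 0.62, 0.61 and 0.53 to 0.11, 0.12, 0.11 and 0.03. With 1 sample left out the sign of this difference turned for Oprm1, Oprl1 and Npy1r and not for Adora1. For Oprk1 the difference went from 0.75 to 0.25, and it was -0.009 without PRATA replicate 1. For Galr1, Npy2r and Sstr2 the difference came to -0.13, -0.21 and -0.14. These signs turned too, to 0.04 for Galr1 and 0.01 for Sstr2 without sham replicate 1, and to 0.12 for Npy2r without sham replicate 2. Relative to the neuron markers 6 of the 9 receptors were above 0. Relative to the 20 nociceptor markers, whose mean differed by 0.32, the median was 0.30 and 8 of the 9 receptors were above 0. Among these 8, Galr1 and Sstr2 were at 0.05. On the nociceptor scale the groups overlapped for all of the 9 but Cnr1. The share of all genes above 0 was not computed on either scale.

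Cnr1 was 1 of 9 receptors whose groups did not overlap after the neuron marker level was taken off, with a difference of 0.54, beside 27.7% of all genes tested (0.57% on the higher side). Its level relative to the markers was -3.66, -3.60 and -3.53 log2 units after PRATA and -3.76, -3.93 and -4.71 after sham. PRATA replicate 1 and sham replicate 1 were close to each other, and sham replicate 3 was far lower. Without sham replicate 3 the difference was 0.25. The exact two-sided permutation p was 0.10 (n = 3 per group), the smallest possible. Relative to the nociceptor markers the difference was 0.72, and the groups did not overlap either (16.6% of all genes, 2.93% on the higher side). Markers of the neurons and of satellite glia differ in the directions given above. Schwann cells are also glia, and 12 of 14 of their markers had a fold change above 1. The part of these cell types in the receptor differences was not tested.

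**Figure D3:**
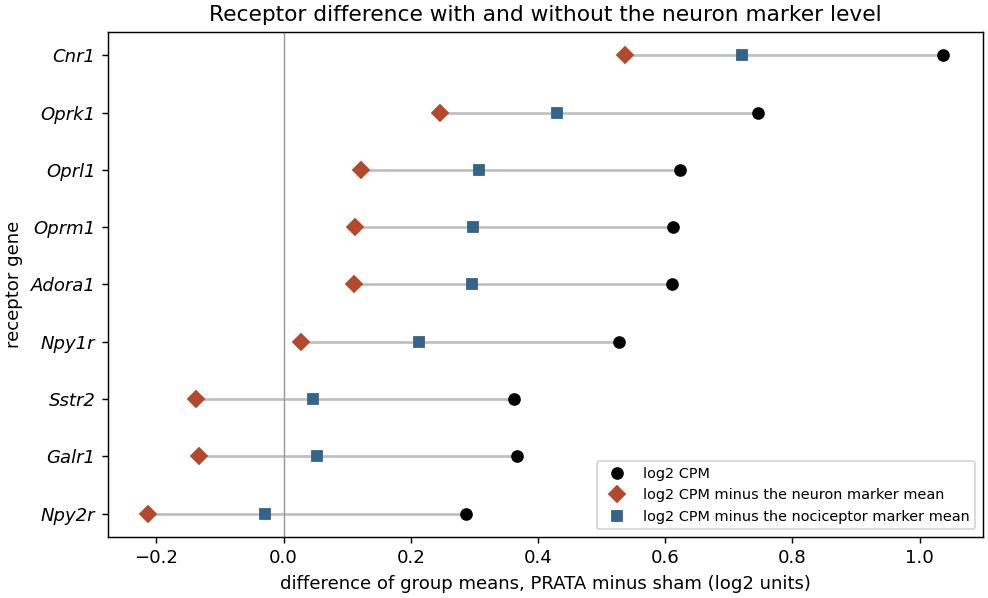
Difference of the group means, PRATA minus sham, in log2 units for the 9 receptor genes tested, as log2 CPM (black circles) and after the mean of the neuron markers (red diamonds) or of the nociceptor markers (blue squares) was subtracted in each sample. Cnr1 lies at 1.04 before and at 0.54 and 0.72 after, while the other receptors lie between -0.21 and 0.25 relative to the neuron markers.

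The reads on the 10 receptor genes were also divided among them in each sample, a scale chosen after the data had been seen and free of library size. Cnr1 took 11.6%, 11.4% and 11.7% of these reads after PRATA and 8.94%, 9.90% and 7.15% after sham. The means were 11.6% ± 0.148 and 8.66% ± 1.39 (SD, n = 3) with an exact two-sided permutation p of 0.10. Cnr1 was the only one of the 10 whose shares did not overlap between the groups. The shares rest on the same counts as the CPM values above and have no counterpart over all genes. They are therefore no separate support for a difference in Cnr1. Oprm1 took 23.1%, 22.6% and 30.0% after PRATA against 25.6%, 26.8% and 23.9% after sham, and Adora1 took 28.6%, 21.3% and 25.7% against 19.4%, 28.7% and 29.6%. Oprl1, whose CPM groups did not overlap, took 10.01%, 11.1% and 12.4% against 14.4%, 7.16% and 13.3%, so its shares overlapped.

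**Figure D4:**
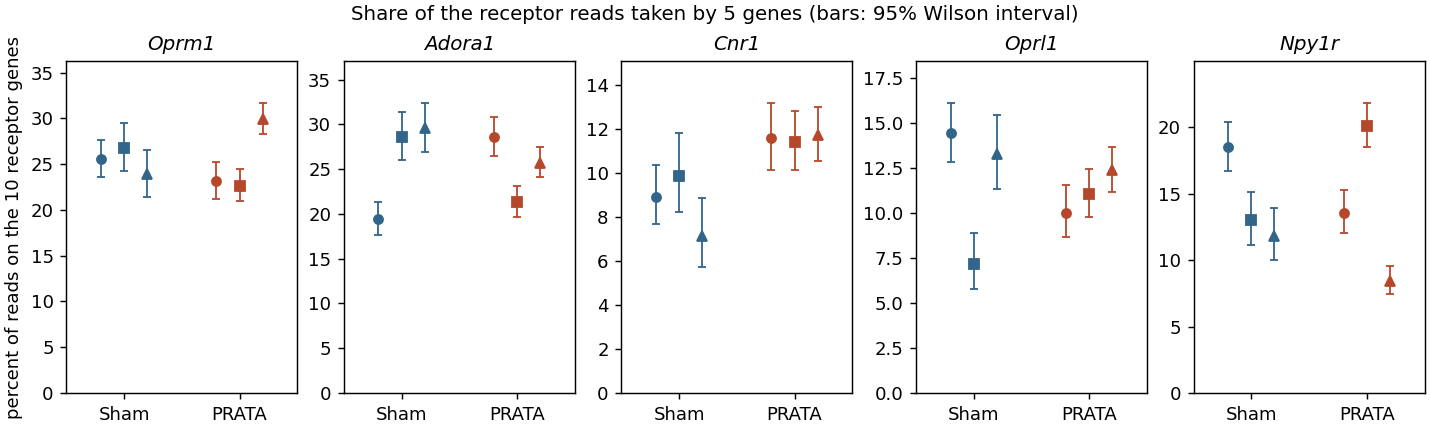
Percent of the reads on the 10 receptor genes that fell on Oprm1, Adora1, Cnr1, Oprl1 and Npy1r in each sample (sham blue, PRATA red; circle, square and triangle for replicates 1, 2 and 3; bars for the 95% Wilson interval, which covers counting error only). For Cnr1 the 3 PRATA samples sit at 11.4% to 11.7%, above the range of 7.15% to 9.90% in the sham samples.

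The genes whose pattern over the 6 samples was most like those of the 3 receptors with the highest mean CPM were looked up among 13904 protein-coding genes tested, by the root mean square difference of centred log2 CPM. For Adora1 these were Pls1 (0.033), Rbm20 (0.042) and Ppp4r4 (0.057). For Oprm1 they were Sgip1 (0.064), Sh3gl2 (0.072) and Osbpl10 (0.077). For Npy1r they were Dnajb4 (0.093), Ugt8 (0.104) and Ppp1r3c (0.106). These values describe likeness over 6 samples of the same libraries and carry no test.

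RefSeq promoter sequences (rat build GRCr8, 250 bases before to 50 after the annotated start) were present for 7 of the 10 receptors. They were searched on both strands for the cAMP response element TGACGTCA, the site of the factor CREB, because cyclic AMP is the messenger that these receptors lower. It was found in Sstr2 alone, at position -73 from the start, and in 1.91% of 27457 rat promoters. Its core, TGACG or the reverse complement CGTCA, was found in Sstr2 inside the full element and in Npy1r at position -138, and in 22.0% of rat promoters. Both promoters are shown with the matched bases in capitals, Sstr2 from chr10:99163103-99163402 on the plus strand and Npy1r from chr16:27813338-27813637 on the minus strand.
Sstr2: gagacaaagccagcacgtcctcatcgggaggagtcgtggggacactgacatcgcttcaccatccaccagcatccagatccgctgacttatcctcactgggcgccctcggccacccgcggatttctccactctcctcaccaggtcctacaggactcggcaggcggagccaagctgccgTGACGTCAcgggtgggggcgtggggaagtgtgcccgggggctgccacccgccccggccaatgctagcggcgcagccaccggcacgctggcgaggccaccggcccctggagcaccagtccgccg
Npy1r: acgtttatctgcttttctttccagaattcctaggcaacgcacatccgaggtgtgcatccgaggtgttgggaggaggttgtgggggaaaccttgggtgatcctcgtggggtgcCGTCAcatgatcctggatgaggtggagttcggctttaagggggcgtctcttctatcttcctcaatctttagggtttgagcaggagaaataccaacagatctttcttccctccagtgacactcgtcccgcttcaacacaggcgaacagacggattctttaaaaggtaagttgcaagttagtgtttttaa
A match describes the letters and is not evidence that a factor binds there. Sstr2 and Npy1r are among the receptors with overlapping groups, at log2 fold changes of 0.45 and 0.54.

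The precursors of the peptide ligands were read at uneven levels. Of 9 genes listed, 5 were tested and none had an unadjusted p under 0.05, with a median log2 fold change of 0.19 against 0.02 over all genes. Gal, the galanin precursor, measured 13.2, 70.8 and 2.93 CPM after PRATA and 3.87, 9.99 and 5.20 CPM after sham, and Npy measured 3.10, 33.9 and 0.316 CPM against 2.63, 1.56 and 0.283 CPM. PRATA replicate 2 was far above every other sample for both, and PRATA replicate 3 was below the sham range for Gal and near its lower end for Npy. Pomc, the precursor of beta-endorphin, had a log2 fold change of -0.80 and was at low levels throughout. Of the 17 enzymes and transporters that make or clear endocannabinoids and adenosine, 3 were higher and 1 was lower at an unadjusted p under 0.05, which is near the 18.3% of all genes tested. Daglb, a synthase of 2-arachidonoylglycerol, had a log2 fold change of 0.58, Mgll, which degrades it, 0.57, and Slc29a2, a nucleoside transporter, -1.18, each with an adjusted p above 0.05 in edgeR.

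Of 37 other Gi/o-coupled receptors, 23 were tested, with a median log2 fold change of 0.33. An unadjusted p under 0.05 was found for 3 on the higher and 1 on the lower side, again near the 18.3% of all genes tested. Adra2c and Adra2a, the alpha-2 adrenergic receptors C and A, had log2 fold changes of 0.99 and 0.78, and S1pr1, a sphingosine-1-phosphate receptor, -0.47. For Adra2c the values were 9.42, 5.50 and 8.62 CPM after PRATA and 3.80, 3.59 and 4.35 CPM after sham, with no overlap. The adjusted p of Adra2c was 0.176 in edgeR.

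Downstream of the receptors, the 17 G protein subunit genes tested had a median of 0.21, with 2 higher and 1 lower at an unadjusted p under 0.05, near the 18.3% of all genes. Gnaz, the alpha subunit z, had a log2 fold change of 0.64, Gnb5, a beta subunit that pairs with RGS proteins, 0.56, and Gng12, a gamma subunit, -0.96. The channel list held pore-forming and auxiliary subunit genes of voltage-gated calcium channels and genes of inwardly rectifying potassium channels, not all of them direct targets of beta-gamma subunits. All 12 had a fold change above 1, with a median log2 fold change of 0.59. At an unadjusted p under 0.05, 7 of the 12 were higher and 0 lower, beside 8.19% of all genes on the higher side, and 8 did not overlap, beside 11.6%. These were calcium channel genes in 7 cases, among them Cacna1a (0.70), which encodes the P/Q-type channel, Cacna1c (0.57), an L-type channel gene, and Cacna2d1 (1.004), the auxiliary subunit bound by gabapentin. Kcnj3, a potassium channel gene of this pathway, was the remaining case at 0.60.

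Adenylyl cyclases, which make cyclic AMP, numbered 9 genes with a median of 0.62 for the log2 fold change, and 5 were higher and 0 lower at an unadjusted p under 0.05, beside 8.19% of all genes on the higher side. Adcy7 (0.74), Adcy2 (0.79), a cyclase that beta-gamma subunits stimulate, and Adcy8 (0.62), a cyclase stimulated by calcium, had the smallest p. The mean log2 level of the cyclases was 4.47, 4.64 and 4.51 after PRATA and 4.22, 4.01 and 3.86 after sham, without overlap. The channels' mean did not overlap either. Neither mean was put relative to the neuron markers, which were also higher on average after PRATA. Of 28 receptor kinases, arrestins and RGS proteins tested, 3 were higher and 0 lower at an unadjusted p under 0.05, beside 8.19% of all genes higher and 10.1% lower, with a median of 0.27. They were Rgs2 (0.62), which acts mainly on Gq rather than on Gi, Arrb1 (0.50), a beta-arrestin, and Ric8b (0.38), a chaperone of the stimulatory alpha subunits. None of the genes in these lists reached an adjusted p of 0.05 in edgeR, where 0 genes did so in all.

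**Figure D5:**
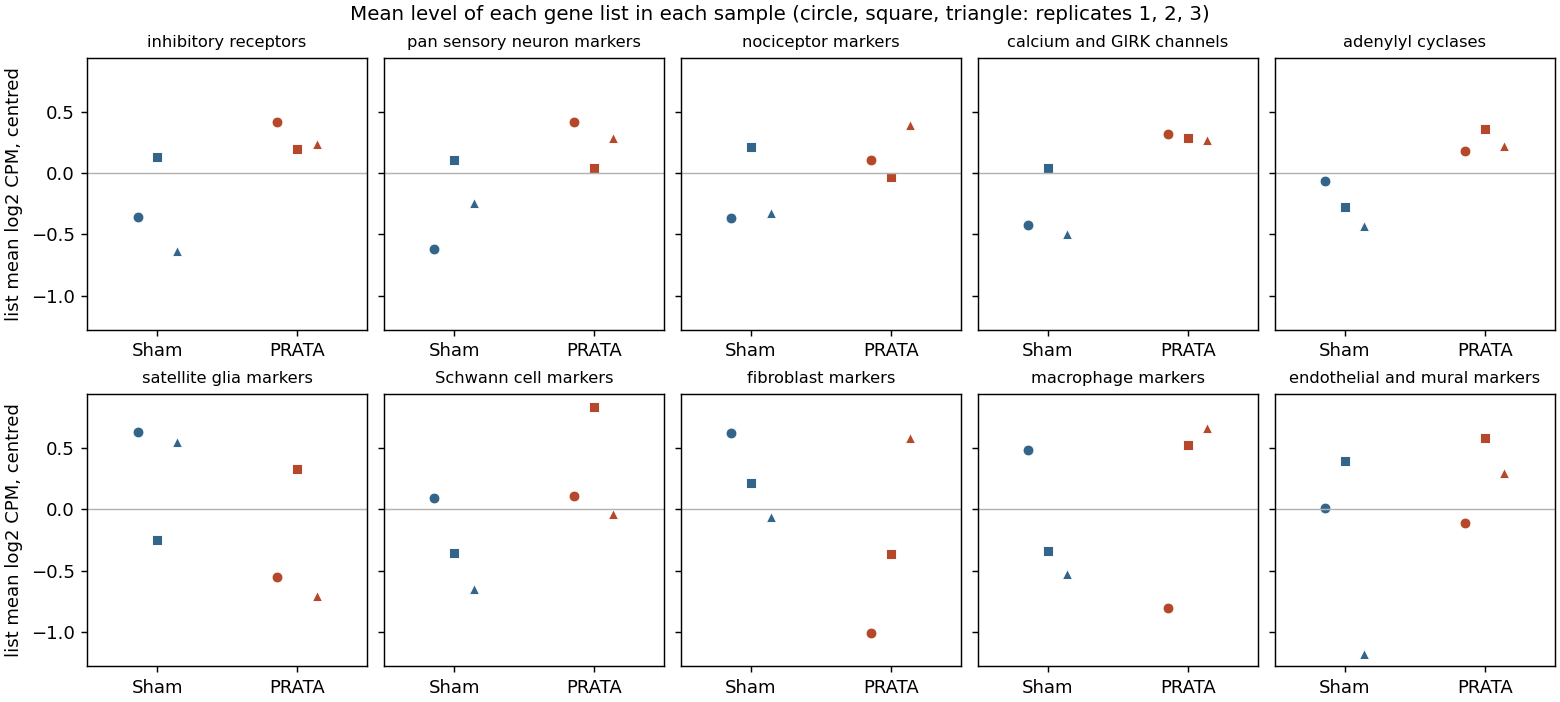
Mean log2 CPM of 10 gene lists in each sample, centred on the mean of the 6 samples (sham blue, PRATA red; circle, square and triangle for replicates 1, 2 and 3). The receptor, channel and adenylyl cyclase lists have higher values in every PRATA sample than in every sham sample. The receptor list does so by a small margin, 3.73 in PRATA replicate 2 against 3.66 in sham replicate 2 before centring. The neuron marker list overlaps only through sham replicate 2, at 8.00 against 7.94 in PRATA replicate 2. Separation of list means has no counterpart over all genes here. The channel and cyclase lists were not put relative to the neuron markers.

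Cell type markers are given by the median log2 fold change over the genes tested and up to 3 genes with the smallest p. The 26 neuron markers had a median of 0.44, with 6 higher and 0 lower at an unadjusted p under 0.05, with Pou4f1 (1.02), Celf4 (1.10) and Tubb3 (0.81). At this threshold 8.19% of all genes were higher and 10.1% lower, shares that stand beside every list in this paragraph. The 20 nociceptor markers had 0.38, with 5 higher and 1 lower, with Prdm12 (0.72) and Calcb (0.69). The 14 markers of large-diameter and C-LTMR neurons had 0.45, with 3 higher and 1 lower, with Asic1 (0.75), Ntrk2 (-1.04) and Cacna1h (0.64). Satellite glia markers had -0.53, with 0 higher and 3 lower, with Sox10 (-1.63), Ptprz1 (-1.03) and Fbln2 (-0.98). Fibroblast markers had -0.46, with 0 higher and 1 lower, with Postn (-1.78), Dpt (-0.998) and Fn1 (-0.81). Schwann cell markers had 0.72, with 4 higher and 0 lower, with Ncmap (2.44), Ngfr (0.75) and Prx (1.39). Macrophage markers had 0.46 at a summed 33.4 to 124 CPM, with 0 higher and 0 lower, and 9 of 13 had a fold change above 1. The smallest p in that list were those of C1qa (1.55), C1qc (1.24) and C1qb (1.02). Endothelial and mural markers had 0.28, with 1 higher and 0 lower, with Vwf (1.47), Myh11 (0.84) and Emcn (1.06). No marker was at 0 in every sample, and the neuron markers Tubb3 and Pou4f1 were read in all of them. The part of these cell types in the receptor differences was not tested.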

How the data were processed

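Neurons of L1-L2 DRGs were sequenced in 3 PRATA and 3 sham samples of SHRs. The authors deposited 1 table of raw counts per gene, whole numbers without normalization, and all of its sample columns were used (0 left out). The submitters' processing notes list STAR 2.7.3a, RSEM and DESeq2, while the methods of the study name HISAT2, StringTie and Cuffdiff for FPKM values. Which tool made the counts, the strand setting, the genome build and the annotation are not given in the sources used here. Transcript lengths were not used here, so levels were compared between samples and not between genes.

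The tools were edgeR 4.0.16, DESeq2 1.42.0 and limma 3.58.1 under R 4.3.3, with matplotlib 3.10.9 under Python 3.11.15 for the figures. Genes were kept by filterByExpr (minimum count 10, minimum total 15), counts were scaled by TMM (factors 0.953 to 1.10), and the quasi-likelihood test compared PRATA with sham, as a two-sided test whose p-values were adjusted by Benjamini-Hochberg over the 14919 genes kept. A count of 3 corresponds to 0.207 to 0.468 CPM depending on the sample. The edgeR, DESeq2, voom and replicate block fits were tested on simulated counts drawn for each gene on its own. The simulation held no difference in cell content between samples, and the other steps were not tested in this way.

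The genes named are the 10 receptors, up to 3 genes with the smallest p from each of 15 other lists of pathway and cell type genes, and the 3 genes most like each of the 3 receptors with the highest mean CPM. The calcium and potassium channel genes and overlapping genes are named beside these by their annotation, with Kcnj3 named after its values were seen. A gene that this rule picks is not reported here. The receptors and lists were chosen with earlier results of these data known. Alternatives were other scalings, no filter or a stricter filter, DESeq2, limma voom with sample quality weights, a replicate block, leaving out 1 sample at a time, and the 4 samples with the same leading 7SL copy.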

Additional observations from a re-analysis of the deposited data

How the results depend on the processing

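The median log2 fold change of the receptors stayed above 0 in every alternative, from 0.43 to 0.87. At an adjusted p under 0.05, where edgeR called 0 receptors, DESeq2 and limma voom with sample quality weights called 1 each (Cnr1, adjusted p 0.0458 and 0.0328, log2 fold changes 0.99 and 1.38), and leaving out 1 sample gave 0 to 1, the 1 being Cnr1 without sham replicate 2. Over all genes these fits called 728, 1173 and 721 genes, against 0 in edgeR and 13 in the 4 samples with the same leading 7SL copy. At an unadjusted p under 0.05 the 2 receptors became 4 without a filter on low counts (13.5% of all genes) and 6 with voom (30.9%), and 1 to 5 with 1 sample left out: 5 without sham replicate 2 (27.6%), 1 without PRATA replicate 1 (8.91%) or sham replicate 3 (9.33%). Beyond 2-fold the count of 1 became 0 with DESeq2's size factors, library size alone, DESeq2 and the 4 samples, 2 with voom, and 0 to 3 with 1 sample left out. Over all genes this rule called 657 in the main fit, 666 with DESeq2's size factors, 642 with library size alone and 712 with DESeq2. It called 994 in the 4 samples, 1002 with voom and 485 to 1034 with 1 sample left out. The receptors whose groups did not overlap numbered 2 to 8 with 1 sample left out, beside 26.9% to 46.7% of all genes. In the 4 samples they numbered 5, beside 44.8%. Relative to the neuron markers they numbered 1 to 2, and the share of all genes was computed for the full set of samples only (27.7%). Npy2r reversed to -0.18 without sham replicate 1, -0.11 without sham replicate 3 and -0.065 in the 4 samples, and with 1 sample left out it ran from -0.18 to 1.05 (without sham replicate 2). The causes were not tested. Oprd1 was at too few reads for its difference to be detectable, and 3 samples per group cannot give an exact p under 0.10.

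Replicate numbers are shared between the groups, but the sources do not say that they mark a shared animal, batch or day, and deviations of same-numbered samples correlated at -0.35, -0.05 and -0.35, so the numbers were not taken to pair the samples. With the replicate block, 3 receptors had an unadjusted p under 0.05 (Cnr1, Npy1r and Oprl1), against 10.2% of all genes, 0 had an adjusted p under 0.05 in edgeR, and the log2 fold change of Cnr1 was 1.07 with an adjusted p of 0.461.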
